A study of Mus musculus with 19 samples.

Results

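The antioxidant enzymes described here are 10 genes, the superoxide dismutases *Sod1* and *Sod2*, the catalase gene *Cat*, the glutathione peroxidases *Gpx1* and *Gpx4*, the peroxiredoxins *Prdx1*, *Prdx2* and *Prdx3*, thioredoxin (*Txn1*) and thioredoxin reductase (*Txnrd1*). They were given by name, and all 10 were found among the 54352 genes of the count files and passed every filter on low counts. RNA was sequenced from 19 libraries of mouse bone marrow cells, 9 from common myeloid progenitors (CMPs) and 10 from LSK cells, the stem and progenitor population that the labels call KLS. The mice had been transplanted with C57BL/6 hematopoietic stem cells that carried a doxycycline-inducible shRNA. They had 10 weeks to reconstitute, received doxycycline in their food for the last 6 days, and zsGreen+ cells were sorted. The shRNAs were sh10 or sh20, both against the lncRNA *Spehd* (lnc12928), or, as a control, an shRNA against *Renilla* luciferase. There were 4 *Renilla*, 3 sh10 and 2 sh20 libraries of CMPs and 4, 3 and 3 of LSK cells in the same order. All groups therefore share the transplantation, the vector and the doxycycline, and the recipients (C57BL/6-CD45.1 with the cKit-w41 allele, sub-lethally irradiated adults of both sexes) kept host marrow cells that the zsGreen gate should leave out. The labels do not say that libraries of a group came from separate mice, so the p-values measure the spread between these libraries.

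Superoxide is a by-product of the respiratory chain and of NADPH oxidases, and superoxide dismutases turn it into hydrogen peroxide. *Sod1* works in the cytosol and *Sod2* in the mitochondrial matrix. Hydrogen peroxide is then removed by catalase in peroxisomes, by glutathione peroxidases (selenoproteins that spend glutathione, *Gpx4* being the one that reduces lipid peroxides within membranes) and by peroxiredoxins. *Prdx1* and *Prdx2* are mainly cytosolic and *Prdx3* is mitochondrial. Thioredoxin keeps the peroxiredoxins reduced, and thioredoxin reductase recharges thioredoxin with electrons from NADPH. Blood stem cells are known to hold low levels of reactive oxygen species, and *Prdx2* is one of the most abundant proteins of red cells.

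Several genes of this family are known targets of NRF2 (*Nfe2l2*), which binds the antioxidant response element. The core of that element, TGACNNNGC, was searched on both strands of RefSeq promoter windows on GRCm38, each running from 250 bases before to 50 bases after a start site. All 10 genes had at least 1 window, and 3 of their 15 windows held the core, against 4071 of 32851 windows overall (12.4%). The 3 are shown because they are the stretches of these promoters with the recognition letters of a known redox regulator, and each is 101 bases on the plus strand with the match in capitals, read on the other strand. The *Prdx1* match begins 133 bases before the start, the *Txnrd1* match 92 bases and the *Sod1* match 56 bases before it. The *Prdx1* stretch is chr4:116685420-116685520, the *Txnrd1* stretch chr10:82859068-82859168 and the *Sod1* stretch chr16:90220660-90220760. A match of letters describes the sequence and is no evidence of binding.
Prdx1: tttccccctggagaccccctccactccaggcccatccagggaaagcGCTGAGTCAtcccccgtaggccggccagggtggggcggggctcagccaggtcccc
Txnrd1: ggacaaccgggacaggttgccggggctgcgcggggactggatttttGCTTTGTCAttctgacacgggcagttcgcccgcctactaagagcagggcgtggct
Sod1: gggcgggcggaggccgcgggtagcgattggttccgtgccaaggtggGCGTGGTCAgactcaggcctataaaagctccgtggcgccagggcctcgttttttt

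The genes were located in the GENCODE vM21 annotation of GRCm38, and all are protein coding. *Sod1* (ENSMUSG00000022982.10) is at chr16:90220754-90226329 on the plus strand, *Sod2* (ENSMUSG00000006818.5) at chr17:13006846-13040063 on the plus strand and *Cat* (ENSMUSG00000027187.10) at chr2:103453849-103485160 on the minus strand. *Gpx1* (ENSMUSG00000063856.7) is a short gene at chr9:108338903-108340343 and *Gpx4* (ENSMUSG00000075706.10) is at chr10:80047166-80056439, both on the plus strand. *Prdx1* (ENSMUSG00000028691.12) is at chr4:116685544-116700822 and *Prdx2* (ENSMUSG00000005161.15) at chr8:84969587-84974834, both on the plus strand, and *Prdx3* (ENSMUSG00000024997.7) is at chr19:60864051-60874556 on the minus strand. *Txn1* (ENSMUSG00000028367.5) is at chr4:57943373-57956411 on the minus strand and *Txnrd1* (ENSMUSG00000020250.10) at chr10:82833951-82897712 on the plus strand. Exons of *Prdx2* overlap those of *Junb* and *Rnaseh2a* on the other strand, and it is not stated that the libraries kept the strand. HTSeq-count counts by strand unless told otherwise, and no other setting is stated, so whether reads of *Prdx2* were told apart from theirs is not known. Between 51.9% and 53.8% of the uniquely aligned reads of each library fell in the row for no feature. The other 9 share no exon with another gene. Rows for named processed copies held few reads, with 2 to 12 counts for Gpx4-ps2, 0 to 1 for Prdx2-rs3 and 0 to 3 for Txn-ps1.

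Libraries held between 3647318 and 5965155 counts on genes and between 17174 and 20678 detected genes. The totals were not even across groups. They ran from 3857980 to 4314959 in *Renilla* CMPs, from 4918631 to 5228700 with sh10 and from 5680969 to 5965155 with sh20, so the 3 CMP groups did not overlap in depth. No gene of the counted annotation is named *Spehd*, so the knockdown itself was not read from these files. The labelled cell types were checked with marker lists in *Renilla* cells. In CMPs, 9 of 13 stem cell markers were lower than in LSK cells (*Ly6a* fell by 3.29 on the log2 scale, SE 0.39) and 11 of 15 erythroid markers were higher (*Klf1* by 3.03, SE 0.30). Of 11 myeloid progenitor markers, however, 9 were lower in CMPs than in LSK cells, among them *Elane* (log2 fold change -2.06, SE 0.19), so this list goes against the CMP label while the stem cell and erythroid lists separate the populations.

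Per length, *Gpx1* and *Prdx3* had the highest levels of the family in *Renilla* CMPs. There, CPM (counts per 1000000 counts of a library, scaled by TMM over all 19 libraries) per kilobase of annotated exon were 139 for *Gpx1*, 136 for *Prdx3*, 95.8 for *Txn1*, 83.1 for *Cat* and 65.1 for *Prdx2*. The remaining members ran from 39.5 for *Txnrd1* and 34.2 for *Prdx1* through 19.7 for *Gpx4* and 15.5 for *Sod2* to 12.7 for *Sod1*. This order depends on the length used. With the principal transcript alone in place of all exons, *Sod1* was at 78.8 CPM per kilobase and *Prdx2* at 123, while *Gpx1* (187) and *Prdx3* (136) were still the highest. The order was another in *Renilla* LSK cells, where *Gpx1* led with 124 CPM per kilobase of exon, ahead of *Txn1* (84.6), *Cat* (83.3) and *Prdx3* (82.4).

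The deposited counts of 4 members hardly moved from library to library. *Gpx1*, the main cytosolic glutathione peroxidase, had 806, 812, 817 and 829 counts in *Renilla* CMPs, 815, 799 and 797 with sh10 and 821 and 803 with sh20. In LSK cells it had 784, 808, 788 and 808 counts with *Renilla* shRNA, 813, 830 and 810 with sh10 and 807, 801 and 818 with sh20. The highest *Gpx1* count was thus only 1.06 times the lowest, while library totals differed by 1.64 times. The variance of *Gpx1* counts over the 19 libraries was 0.180 times their mean, where independent counting alone gives a ratio of 1. The ratio was 0.520 for *Prdx1* (394 to 446 counts), 0.876 for *Gpx4* (116 to 158 counts) and 1.11 for *Txn1* (374 to 449 counts). Of the 10484 genes that averaged 50 counts or more, 47 (0.448%) had a ratio under 1, and *Gpx1* had the fifth lowest. The other 6 members had ratios from 9.52 (*Sod1*) to 45.4 (*Txnrd1*).

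**Figure D1:**
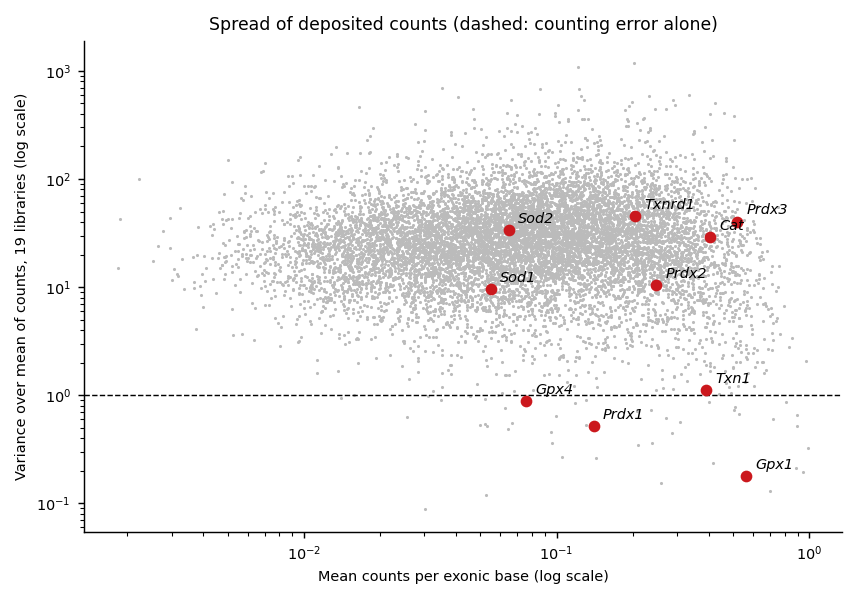
Variance over mean of the deposited counts across 19 libraries (log axis) against mean counts per exonic base (log axis) for genes that average 50 counts or more, in grey, with the 10 antioxidant genes in red and a dashed line at 1, the value of counting error alone. *Gpx1* at 0.180, *Prdx1* at 0.520 and *Gpx4* at 0.876 lie under the line and *Txn1* at 1.11 just above it, while the other 6 lie at 9.52 or more.

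The same split appeared against library size. The slope of log2 count on log2 total, which is 1 where counts grow with the library, was 0.02 for *Gpx1*, -0.03 for *Gpx4*, 0.13 for *Prdx1* and 0.16 for *Txn1*. It was 0.26 for *Prdx2*, 0.54 for *Sod1*, 0.82 for *Prdx3*, 0.93 for *Sod2*, 1.16 for *Cat* and 1.22 for *Txnrd1*. The authors had removed duplicate alignments before counting. Genes with many counts per exonic base had flatter slopes in general, with a median of 0.39 for the 187 genes at 0.5 to 1 counts per base against 1.11 for the 2583 genes at 0.05 to 0.1. *Gpx1* (0.561 counts per base) and *Prdx3* (0.520) are in the first of these classes and *Gpx4* (0.076) is in the second. The part of duplicate removal in the level counts was not tested. For a member whose count stays level, CPM falls as the library grows.

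**Figure D2:**
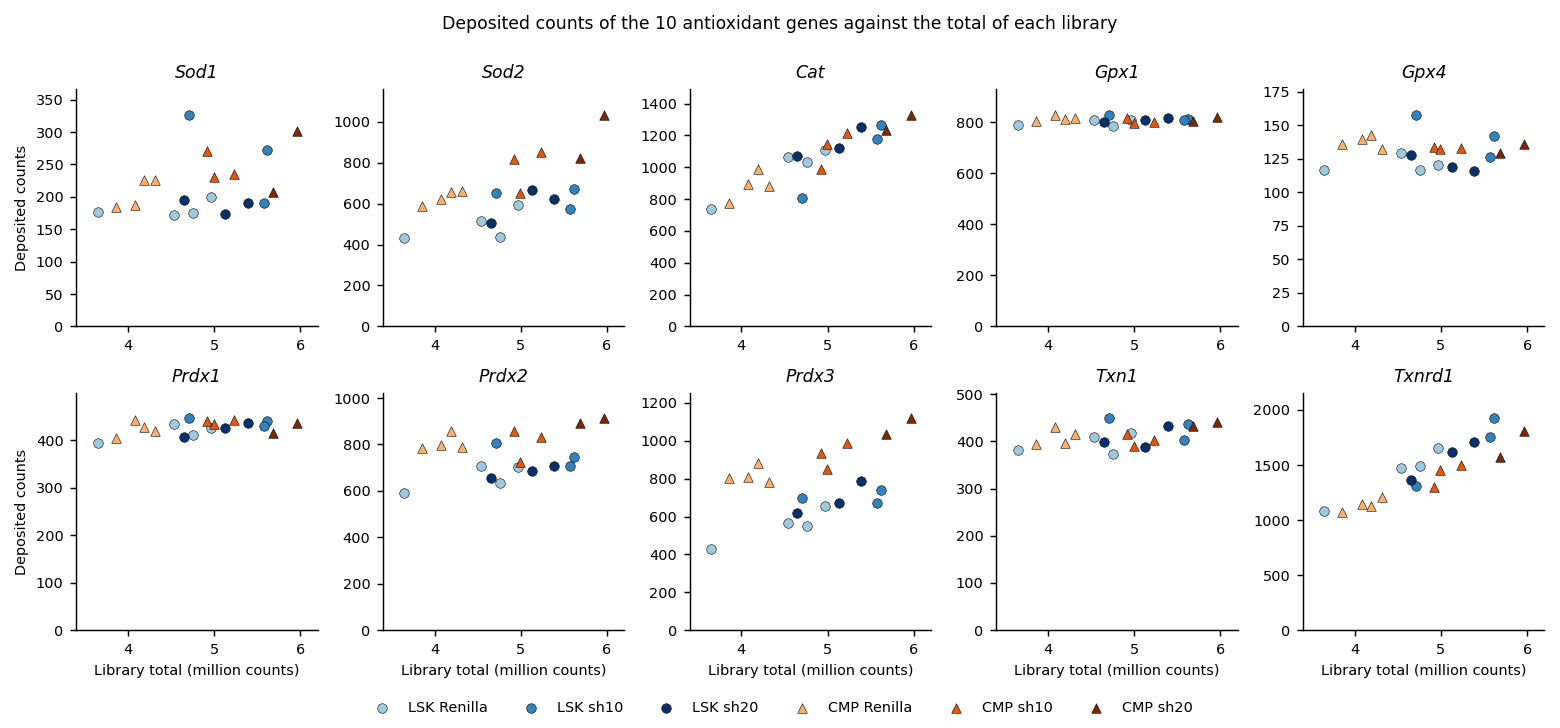
Deposited counts of each antioxidant gene (vertical axis, from 0) against the total counts of the library, with circles for LSK and triangles for CMP libraries coloured by shRNA. *Gpx1*, *Gpx4*, *Prdx1* and *Txn1* form level bands, *Cat* and *Txnrd1* rise with the total, and CMP libraries lie above LSK libraries of like size for *Prdx3*.

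The first comparison asked how control CMPs differ from control LSK cells. Both mitochondrial members, *Prdx3* and *Sod2*, and the peroxiredoxin *Prdx2* were higher in CMPs. *Prdx3* had 211, 215, 181 and 199 CPM in the 4 *Renilla* CMP libraries and 116, 132, 118 and 122 CPM in the 4 *Renilla* LSK libraries. All CMP values were above all LSK values, with means of 202 ± 15.2 (SD, n = 4) and 122 ± 7.09 (SD, n = 4). The log2 fold change was 0.73 (SE 0.079, adjusted p = 9.6e-06, edgeR). *Prdx3* was raised in the raw counts as well, with 781 to 882 in CMPs and 431 to 656 in LSK cells, although the CMP libraries were the smaller on average (log2 ratio of effective library sizes -0.15).

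*Sod2*, which makes hydrogen peroxide in the same compartment, had 155, 160, 153 and 153 CPM in *Renilla* CMPs and 92.1, 119, 118 and 111 CPM in *Renilla* LSK cells. The groups did not overlap, and the log2 fold change was 0.50 (SE 0.11, adjusted p = 0.0043, edgeR). *Prdx2* had 206, 209, 183 and 195 CPM against 134, 141, 162 and 153 CPM, again with no overlap, and a log2 fold change of 0.43 (SE 0.087, adjusted p = 0.0026, edgeR). In the same libraries the genes that overlap *Prdx2* on the other strand had mean levels in the same order, *Junb* with 143 ± 15.8 CPM in *Renilla* CMPs and 109 ± 9.78 in *Renilla* LSK cells (SD, n = 4 each) and *Rnaseh2a* with 147 ± 8.52 and 116 ± 3.0 CPM (SD, n = 4 each). Their part in the *Prdx2* difference was not tested.

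These 3 of 10 members compare with 11.0% of all 15066 genes tested that were higher in *Renilla* CMPs, and no member was lower. The median log2 fold change of the 10 was 0.25, against -0.02 over all genes tested. *Gpx4* (log2 fold change 0.32, adjusted p = 0.15) and *Sod1* (0.32, adjusted p = 0.23) did not pass the test, nor did *Txn1* (0.18), *Gpx1* (0.16) and *Prdx1* (0.16). *Cat* stood at 217 ± 17.1 CPM (SD, n = 4) in CMPs and 218 ± 12.2 (SD, n = 4) in LSK cells. *Txnrd1* had 275 to 283 CPM in CMPs and 295 to 332 CPM in LSK cells, a log2 fold change of -0.17 that did not pass the test (SE 0.081, adjusted p = 0.15, edgeR). *Txnrd1* was called lower in 3 of the 9 alternative settings, with -0.21 under upper quartile scaling (adjusted p = 0.045), -0.30 with the offset by counts per exonic base (adjusted p = 0.020) and -0.19 in the *Renilla* libraries alone. *Prdx3*, *Sod2* and *Prdx2* passed in all 9 alternative settings and with each of the 8 *Renilla* libraries left out in turn.

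The comparison was repeated within each *Spehd* shRNA, on libraries apart from those of the *Renilla* comparison. All 19 libraries were in the same fit and shared 1 estimate of the spread, so these p-values are not independent of the *Renilla* libraries. *Prdx3* was higher in CMPs with sh10 (log2 fold change 0.58, SE 0.090, adjusted p = 0.00034) and with sh20 (0.44, SE 0.10, adjusted p = 0.0067, edgeR). *Sod2* was also higher with sh10 (0.47, SE 0.13, adjusted p = 0.016) and with sh20 (0.44, SE 0.14, adjusted p = 0.044, edgeR). Over all 6 groups, *Prdx3* lay between 177 and 215 CPM in the 9 CMP libraries and between 116 and 145 CPM in the 10 LSK libraries. The order of its group means was *Renilla*, sh10 and sh20 in CMPs (202, 191 and 186 CPM) and then sh20, sh10 and *Renilla* in LSK cells (137, 128 and 122 CPM). Neighbours in that order overlapped within each cell type, and the cell types did not overlap. For *Sod2*, the CMP libraries ran from 136 to 175 CPM and the LSK libraries from 92.1 to 131 CPM.

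With sh10, 2 of 10 members were called higher, against 7.51% of all genes, and with sh20 also 2, against 5.94%. *Prdx2* did not pass in either (log2 fold change 0.27, adjusted p = 0.079 with sh10, and 0.20, adjusted p = 0.24 with sh20). *Prdx3* was called in 9 of 9 alternative settings with sh10 and 7 of 9 with sh20, and *Sod2* in 5 of 9 and 2 of 9. With only the libraries of sh10 fitted *Prdx3* alone was called, and with only those of sh20 neither was. With the log2 total as a covariate the 2 members called with sh20 were *Prdx2* and *Prdx3*. *Sod2* rested on single libraries here. With sh10 its call was lost on leaving out CMP replicate A or B or LSK replicate A or C, with log2 fold changes of 0.40 to 0.56 over the 6 libraries left out in turn. With sh20 *Sod2* was 0.30 without CMP replicate B and not called, nor was it without LSK replicate B or C. *Prdx3* with sh20 was no longer called without CMP replicate B either.

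**Figure D3:**
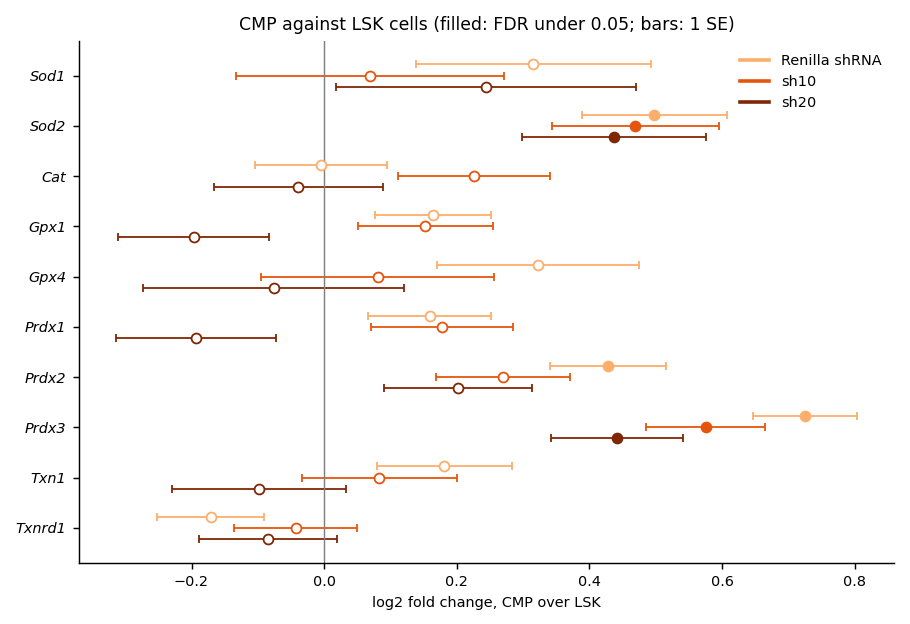
Log2 fold change of each antioxidant gene in CMPs over LSK cells, with bars of 1 SE, for *Renilla* shRNA (4 libraries against 4), sh10 (3 against 3) and sh20 (2 against 3), filled where the adjusted p was under 0.05. *Prdx3* and *Sod2* lie at 0.44 or higher with each shRNA, and *Prdx2* passed with *Renilla* shRNA.

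Marker genes of other cells moved with this comparison. The 15 erythroid markers summed to between 1989 and 2340 CPM in *Renilla* CMPs and between 546 and 762 in *Renilla* LSK cells, and 5 of 8 megakaryocyte markers were higher in CMPs. The 7 mast cell and basophil markers summed to 125 to 182 CPM in CMPs and 363 to 751 in LSK cells, and 6 were lower in CMPs. The 9 mature neutrophil markers summed to 2.44 to 11.0 CPM in CMPs and 6.76 to 334 in LSK cells, and 8 were lower in CMPs. Of 8 monocyte and macrophage markers 3 were lower in CMPs (summed levels of 257 to 503 against 415 to 564 CPM), and of 9 lymphoid markers tested 4 were higher (194 to 270 against 182 to 225 CPM for all 11). None of the genes in these lists was at 0 in all libraries of either group. In bulk samples, more cells of a type and more RNA per cell cannot be told apart, and the part of these cells in the *Prdx3*, *Sod2* and *Prdx2* differences was not tested.

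The next comparison asked what the *Spehd* shRNAs did in CMPs. *Gpx1*, *Prdx1* and *Txn1* were lower with sh20 than with *Renilla* shRNA, each of them a member whose raw count hardly moved. *Gpx1* had 212, 198, 190 and 204 CPM with *Renilla* shRNA, 171, 161 and 167 with sh10 and 139 and 141 with sh20. The 3 groups did not overlap, and the log2 fold change with sh20 was -0.50 (SE 0.074, adjusted p = 0.0093, edgeR). *Prdx1* had 107, 104, 97.2 and 108 CPM with *Renilla* shRNA, 92.6, 89.0 and 90.4 with sh10 and 73.9 and 72.7 with sh20, which gave -0.49 with sh20 (SE 0.098, adjusted p = 0.023, edgeR). *Txn1* had 104, 96.7, 96.5 and 106 CPM, then 87.3, 80.8 and 81.5, then 74.6 and 75.9, and its log2 fold change with sh20 was -0.41 (SE 0.10, adjusted p = 0.049, edgeR).

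These 3 of 10 members compare with 4.27% of all 13824 genes tested that were lower with sh20. The median of the 10 was -0.26, against 0.01 over all genes. The raw counts of *Gpx1* overlapped between these groups (806 to 829 with *Renilla* shRNA, 821 and 803 with sh20), those of *Prdx1* did too, and those of *Txn1* were higher with sh20. *Prdx1* had 405, 427, 419 and 442 counts with *Renilla* shRNA and 436 and 414 with sh20, and *Txn1* had 395, 397, 416 and 430 with *Renilla* shRNA and 440 and 432 with sh20. The effective library size, by which counts are divided, was 1.42 times higher on average in sh20 CMPs than in *Renilla* CMPs, a log2 ratio of 0.51, close to the size of the *Gpx1* and *Prdx1* differences. With the log2 library total as a covariate in 1 fit of all 19 libraries, *Gpx1* was -0.09 (SE 0.10), *Prdx1* -0.17 (SE 0.14) and *Txn1* -0.03 (SE 0.15) and none passed. The slope on depth in that fit was shared by CMP and LSK libraries, while the main fit held CMP libraries only. With library offsets fitted to the counts per exonic base, *Gpx1* was -0.26 (adjusted p = 0.058), *Txn1* -0.24 (adjusted p = 0.17) and *Prdx1* -0.50 (adjusted p = 0.029, edgeR). Over all settings and left-out libraries the adjusted p ran from 9.3e-06 to 0.82 for *Gpx1*, from 0.0012 to 0.76 for *Prdx1* and from 0.015 to 0.97 for *Txn1*. Only *Gpx1* was still called without each of the 6 libraries in turn, *Prdx1* was called in 2 of the 6 and *Txn1* in none. Depth and shRNA cannot be told apart in CMPs, since the totals of the 3 groups do not overlap.

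*Gpx4* had the lowest fold change of the family with sh20 at -0.55 (SE 0.17, adjusted p = 0.085), from 35.8, 34.8, 30.6 and 34.4 CPM to 23.0 and 22.7, and *Prdx2* was at -0.34 (SE 0.090, adjusted p = 0.058, edgeR). Both were without overlap between the groups in CPM and neither passed edgeR's test. *Prdx2* was called lower by DESeq2 (adjusted p = 0.027, with 6.51% of all genes called lower) and under upper quartile scaling (adjusted p = 0.030, with 6.15% called lower). With the log2 total as a covariate *Gpx4* was at -0.02 (SE 0.25) and *Prdx2* at -0.03 (SE 0.14, adjusted p = 0.96, edgeR), and *Gpx4* was not the lowest of the family. The raw *Gpx4* counts overlapped, with 132 to 143 with *Renilla* shRNA and 136 and 129 with sh20. Raw *Prdx2* counts were higher with sh20, at 892 to 913 against 784 to 857 with *Renilla* shRNA. The genes on the other strand from *Prdx2* had lower means with sh20 as well, 111 against 143 CPM for *Junb* and 130 against 147 CPM for *Rnaseh2a*, and their part in the *Prdx2* value was not tested. The other 5 members had log2 fold changes of -0.19 (*Sod1*), -0.10 (*Prdx3*), 0.04 (*Cat*), 0.05 (*Sod2*) and 0.07 (*Txnrd1*). The sh20 libraries differed in *Sod1*, with 51.2 CPM in replicate B and 36.5 in replicate C, and its value was -0.46 without replicate B and 0.04 without replicate C. With the log2 total as a covariate *Sod1* was at 0.30 (SE 0.32) and *Cat* at -0.32 (SE 0.17), and neither passed. The mitochondrial pair thus showed no change past the test in CMPs with sh20. In raw counts *Sod1* overlapped between the groups, with 185 to 226 with *Renilla* shRNA and 208 and 302 with sh20, while *Txnrd1* had 1076 to 1209 counts with *Renilla* shRNA and 1575 to 1810 with sh20.

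With sh10 in CMPs no member passed edgeR's test (1.97% of all genes did). Of all 13824 genes tested, 2926 had an unadjusted p under 0.05, and so did 4 members. The log2 fold changes were -0.28 for *Gpx1* (adjusted p = 0.060), -0.28 for *Txn1* (0.12), -0.26 for *Prdx2* (0.11), -0.20 for *Prdx1* (0.21) and -0.30 for *Gpx4* (0.28). *Gpx1* alone was called by DESeq2 (9.26% of 13282 genes), under upper quartile scaling (3.26%) and with a minimum of 10 counts in every library (3.52%). With the log2 total as a covariate *Gpx1* was at -0.02, *Txn1* at -0.05, *Prdx1* at 0.00 and *Gpx4* at 0.02. The sh10 totals were all above those of *Renilla* CMPs, and the raw *Gpx1* counts were 797 to 815 with sh10 and 806 to 829 with *Renilla* shRNA. The direct test of sh20 against sh10 called no member either, against 6.41% of all genes, with *Gpx1* at -0.23 (adjusted p = 0.099) and *Prdx1* at -0.29 (adjusted p = 0.11). For these genes the shRNAs were therefore not shown to differ, although the totals of the sh20 libraries were also the higher.

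With both *Spehd* shRNAs as 1 group, no member passed in CMPs, against 0.116% of 12912 genes. The lowest adjusted p was 0.070 for *Gpx1* (log2 fold change -0.37, SE 0.076, 5 of 5 *Spehd* libraries under the lowest of 4 *Renilla* libraries). Of all 12912 genes tested, 2149 had an unadjusted p under 0.05, and so did 5 members, *Gpx1* among them. The others were *Gpx4* (-0.40, adjusted p = 0.19), *Prdx1* (-0.31, 0.15), *Prdx2* (-0.29, 0.090) and *Txn1* (-0.33, 0.095). DESeq2, which called 9.39% of 9392 genes here, called *Gpx1*, *Prdx2* and *Txn1*, with adjusted p = 0.0030, 0.013 and 0.010, and over all settings and left-out libraries the adjusted p ran from these values up to 0.98, 0.99 and 0.99. With the log2 total as a covariate the 5 lay between -0.08 and 0.00.

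**Figure D4:**
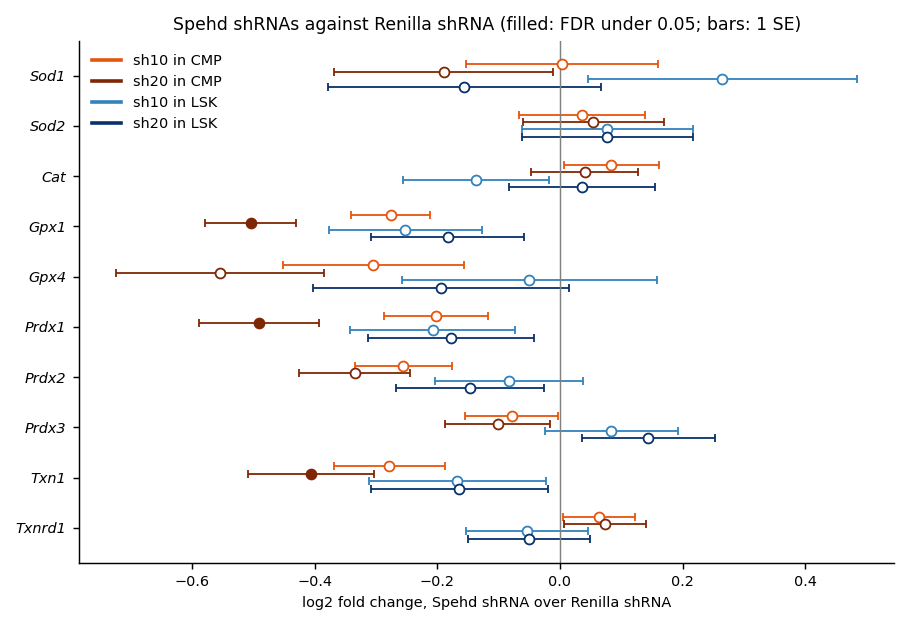
Log2 fold change of each antioxidant gene with sh10 or sh20 over *Renilla* shRNA, in CMPs (orange and brown) and LSK cells (light and dark blue), with bars of 1 SE, filled where the adjusted p was under 0.05. Filled points are *Gpx1* at -0.50, *Prdx1* at -0.49 and *Txn1* at -0.41 with sh20 in CMPs, and *Sod2*, *Cat* and *Txnrd1* lie near 0 in CMPs.

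In LSK cells no member passed with either shRNA or with both as 1 group. No gene at all did in edgeR (0.00% of 13828 genes per shRNA and 0.00% of 13441 for both as 1 group, with 457 genes at an unadjusted p under 0.05 for sh10, 1152 for sh20 and 492 for both). DESeq2 called 3, 195 and 0 genes in these comparisons, and no member among them. The lowest unadjusted p of a member was 0.055, for *Gpx1* with both shRNAs (log2 fold change -0.22, SE 0.10). The highest *Gpx1* value of the 10 LSK libraries, 215 CPM, was in *Renilla* replicate C, the smallest library of the series at 3647318 counts, and the other 3 *Renilla* libraries had 162 to 174 CPM. Without that library *Gpx1* was at -0.12 with both shRNAs. *Gpx4*, *Prdx1*, *Prdx2* and *Txn1* had their highest LSK value in that library as well, at 31.9, 107, 162 and 104 CPM. *Prdx3* was 0.08 with sh10 and 0.14 with sh20, and *Sod2* 0.08 with both. The direct test of sh20 against sh10 in LSK cells called no member and no gene (0.00%, with 1268 genes at an unadjusted p under 0.05 in edgeR and 256 called by DESeq2), with *Sod1* farthest from 0 at -0.42 (SE 0.24, adjusted p = 0.64). Without sh10 replicate B *Sod1* was at -0.19.

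**Figure D5:**
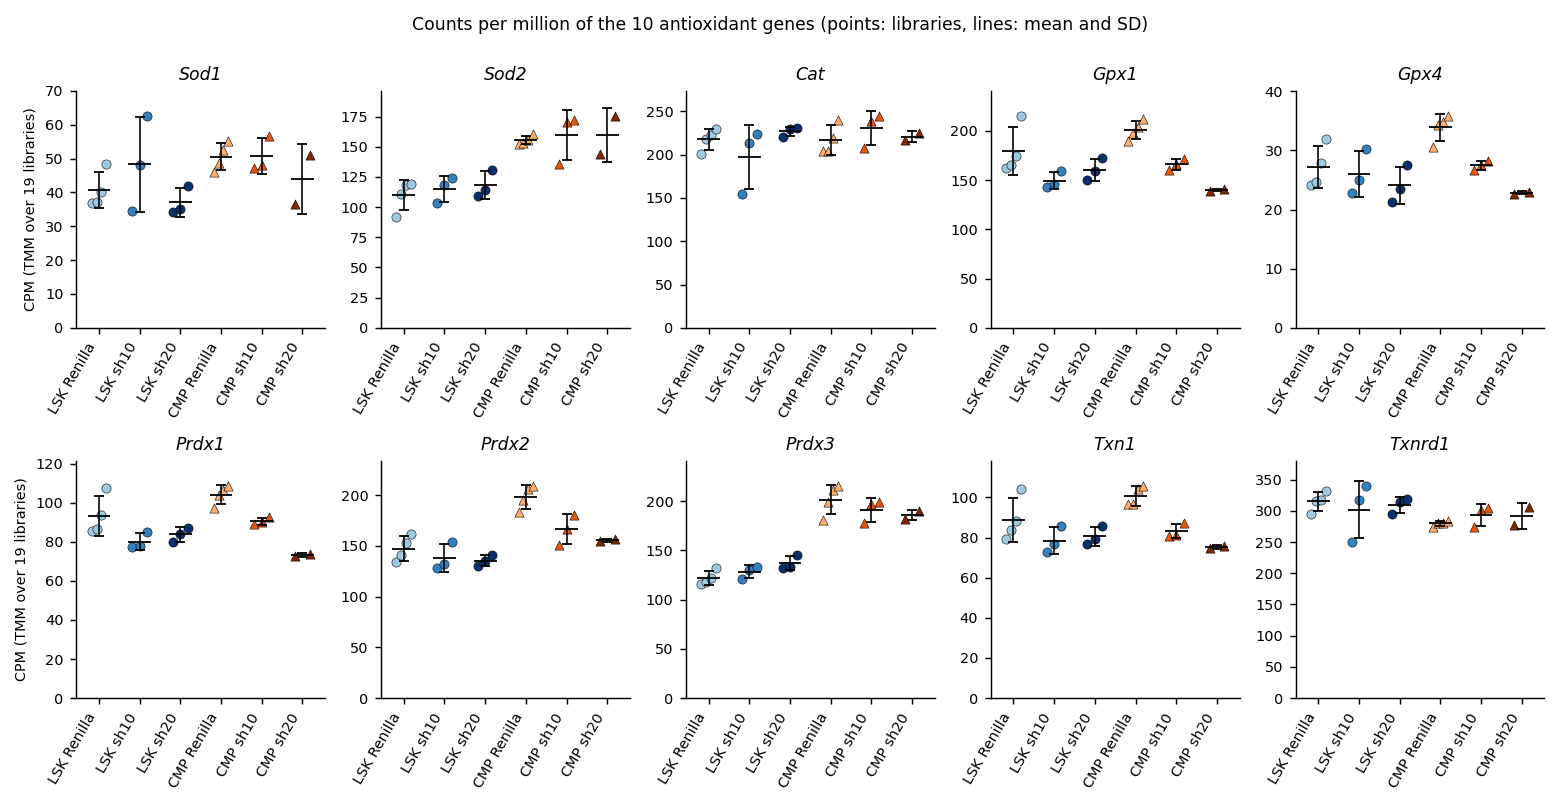
CPM of each antioxidant gene in every library by group (vertical axes from 0), with a line at the mean and bars of 1 SD. *Prdx3* and *Sod2* separate the CMP groups from the LSK groups, *Gpx1*, *Prdx1* and *Txn1* step down from *Renilla* to sh20 in CMPs, and *Cat* is level but for 1 LSK library with sh10 at 155 CPM.

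Whether the shRNAs acted differently in CMPs and LSK cells was tested by the interaction. No member passed, against 0.0531% of 15066 genes. *Prdx3* had the lowest adjusted p at 0.49, with an effect 0.22 log2 units lower in CMPs (SE 0.10), and *Gpx4* stood at -0.32 (SE 0.20) and *Gpx1* at -0.19 (SE 0.12, edgeR). A difference between the populations in the response of these genes was thus not detectable with these libraries.

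The wider redox genes were counted by lists. Of the 78 genes tested from 7 lists, 17 were higher in *Renilla* CMPs and 9 lower, where 11.0% of all genes tested were higher and 8.73% lower. In *Renilla* CMPs against LSK cells, 6 of 15 other thioredoxin and glutaredoxin genes were higher and 1 lower. Among them were mitochondrial thioredoxin reductase *Txnrd2* (log2 fold change 0.84, SE 0.19) and *Glrx5* (0.77, SE 0.092), which serves mitochondrial iron-sulfur cluster assembly. Of 9 other superoxide and peroxide enzymes 7 could be tested, with 1 higher (*Prdx6*, 0.23, SE 0.076) and 1 lower. Of 12 glutathione genes tested, 4 were higher, among them *Gclm*, a subunit of the enzyme for the first step of glutathione synthesis (0.62, SE 0.10), and *Mgst3* (1.42, SE 0.28). The glutathione transferases *Mgst1* (-2.56, SE 0.32) and *Gstm1* (-1.24, SE 0.15) were the 2 lower. Of 9 genes of NADPH supply 3 were higher (*Me2* 0.56, *Pgls* 0.40 and *Nadk* 0.34) and none lower.

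Among 20 redox regulators and targets, *Nfe2l2* itself (0.50, SE 0.15) and its target *Nqo1* (1.10, SE 0.27) were higher in *Renilla* CMPs and 3 were lower, with *Hmox1*, the enzyme that degrades heme, at -1.85 (SE 0.34) and *Prdm16* at -1.59 (SE 0.48). *Hmox1* and *Nqo1*, both known NRF2 targets, thus moved in opposite directions. Of the members with a match of the antioxidant response element core, *Prdx1*, *Txnrd1* and *Sod1*, none passed in this comparison. *Sephs2*, which makes the selenium donor for selenoproteins, was higher (0.27, SE 0.076) and no other of 8 genes of selenoprotein synthesis passed. Of 7 NADPH oxidase subunits 2 were lower and none higher, among them the phagocyte oxidase subunit *Ncf4* (-0.88, SE 0.21).

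With sh20 in CMPs, 7 of 76 genes tested from the same 7 lists were lower and none higher, where 4.27% of all genes were lower and 1.90% higher. The difference in depth between the sh20 and *Renilla* CMP libraries applies to these genes too. They were *Prdx6* (-0.41, SE 0.082), *Glrx5* (-0.45, SE 0.076), the mitochondrial NADPH source *Idh2* (-0.31, SE 0.069), ferritin heavy chain *Fth1* (-0.46, SE 0.076), *Sesn1* (-0.39, SE 0.10), *Rac2* (-0.37, SE 0.079) and *Rac1* (-0.23, SE 0.057). Both *Spehd* shRNAs as 1 group called no gene of any of these lists in edgeR, in CMPs or in LSK cells. Marker lists moved with sh20 in CMPs as well, with 3 erythroid markers higher (*Trim10* at 1.84 and *Tfrc* at 0.86 among them) and 3 lower (*Car1* at -0.49 among them) of 15, while their summed level, 2241 to 2245 CPM, lay within the range of *Renilla* CMPs. The 13 stem cell markers summed to 1886 to 2040 CPM with sh20 and 2242 to 2399 with *Renilla* shRNA, and the 11 myeloid progenitor markers to 1361 to 1541 and 1645 to 1857 CPM, so neither sum overlapped between the groups. The median log2 fold change of the 11 myeloid progenitor markers was nevertheless 0.14, with *Kit* at -0.38 and *Mpo* at -0.20 but *Elane* at 0.54 and *Ctsg* at 0.72, none of which passed the test. *Cd34* was lower (-0.85, SE 0.13). Of 6 mast cell and basophil markers tested 1 was lower, *Ms4a2* (-1.98, SE 0.46), and of 8 monocyte and macrophage markers 1 was higher, *C1qa* (1.82, SE 0.46). The mast cell and basophil markers summed to 126 to 163 CPM with sh20 and 125 to 182 with *Renilla* shRNA. The monocyte and macrophage markers summed to 348 to 634 and 257 to 503 CPM, so both of these sums overlapped between the groups. The part of these cells in the values of the antioxidant genes was not tested.

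The gene most alike to each member was taken as the one with the smallest root mean square difference of scaled log2 CPM over the 19 libraries, among 10474 genes. For *Gpx1* it was Gm20721 (0.089, where the median gene was at 1.37), for *Prdx1* the ribosomal protein gene *Rplp0* (0.16) and for *Txn1* the ribosomal protein gene *Rplp1* (0.20). All 3 had level counts themselves, with 1410 to 1508, 373 to 422 and 140 to 171 counts and variance-to-mean ratios of 0.326, 0.358 and 0.569. *Gpx4* was nearest to *Ppp4c* (0.24) and *Prdx2* to *Mrpl12* (0.21), a mitochondrial ribosomal protein gene. *Prdx3* was nearest to *Cited4* (0.19) and *Sod2* to *Cela1* (0.31), 2 genes whose counts ranged widely, from 9 to 403 and from 67 to 603. *Cat*, *Sod1* and *Txnrd1* had no close partner, with 0.41 for *Mia3*, 0.53 for Gm10366 and 0.48 for *Map7*. Within the family *Gpx1* was closest to *Prdx1* (0.19) and *Prdx3* to *Sod2* (0.41). These are descriptions over libraries that share depth and cell type.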

How the data were processed

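The deposited coverage of each gene is a whole count of reads per library, without normalization. The authors aligned reads to mm10 with STAR 2.5.2a, removed duplicate alignments with Picard 1.131 and counted with HTSeq-count 0.7.2 on GENCODE vM11, with default parameters. Between 72.0% and 77.7% of each file's sum lay in rows that name no gene, and these rows were left out. A normalized table of the series was not used here.

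Counts were tested with edgeR's quasi-likelihood test (edgeR 4.0.16, R 4.3.3) after TMM scaling and filterByExpr (minimum count 10, minimum total 15), with Benjamini-Hochberg adjustment over all genes tested and a threshold of 0.05. The shRNAs were compared within 1 cell type, and cell types and the interaction in 1 fit of the 6 groups. CPM used TMM factors over all 19 libraries. Alternatives were DESeq2 1.42.0, other scalings and filters, a replicate block, a depth covariate, an offset by counts per exonic base, other sets of libraries and leaving out each library. The depth covariate was always fitted over all 19 libraries in 6 groups, also where the main fit held 1 cell type.

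All 10 genes are named, with up to 4 genes per list that passed with a mean of at least 50 counts. The members and lists were chosen with earlier results of these data known. Counts of PCR reads carry no molecular identifiers. The SEs and p-values rest on the spread between libraries, not on counting error alone. Protein sequences were not analysed here, and some genes of the lists are not reported by name.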

Additional observations from a re-analysis of the deposited data

Results flagged for a closer look

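One value stood apart from its group. *Cat* had 155 CPM in LSK replicate B with sh10, where the other 5 LSK libraries with a *Spehd* shRNA had 213 to 230 CPM. The gap to the nearest library was 0.772 of the range of the 6, above Dixon's 95% critical value of 0.625. In all 40 groups of values were checked and 1 was flagged, and chance alone flags about 5% of groups. That library also had the highest share of reads in rows naming no gene (77.7%) and the highest TMM factor of the series (1.11). It had the highest *Sod1* count of all libraries (327) and the lowest *Txnrd1* value (250 CPM). No member was called in LSK cells with or without it, and without it *Prdx2* also passed in the comparison of CMPs with LSK cells under sh10.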

How the results depend on the processing

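The 3 members higher in *Renilla* CMPs than in *Renilla* LSK cells passed under every alternative. The count of 3 became 4 under upper quartile scaling, the offset by counts per exonic base and the *Renilla* libraries alone, the fourth being *Txnrd1*, which was lower. It was 3 to 4 with a library left out, the fourth being *Gpx1*, higher without LSK *Renilla* replicate C. With sh10 the count of 2 became 1 under upper quartile scaling, no filter, the offset and the libraries of that shRNA alone, and 1 to 3 with a library left out. Upper quartile scaling shifted the median of all genes by -0.12 there. With sh20 the count of 2 became 1 under upper quartile scaling, a minimum of 10 counts in every library, the replicate block and the offset, 0 with no filter or with the libraries of that shRNA alone, and 0 to 2 with a library left out. The 3 members lower with sh20 in CMPs became 4 under upper quartile scaling and in DESeq2 (*Prdx2* added), 2 with RLE size factors or with all 19 libraries in 1 fit, 1 with no filter or the offset, 0 with the replicate block, 0 with the covariate for depth, and 1 to 2 with a library left out, the 1 being *Gpx1* without sh20 replicate B or *Renilla* replicate A, B or D. With the block the folds stayed near those without it, at -0.46 for *Gpx1* (adjusted p = 0.090), -0.45 for *Prdx1* (0.15) and -0.35 for *Txn1* (0.22, edgeR), whereas with the covariate they were -0.09, -0.17 and -0.03. Knockdown in CMPs called 0, but 3 under upper quartile scaling, 3 in DESeq2, 4 with the shRNAs as separate groups averaged and 2 with all 19 libraries in 1 fit. The share of all genes called there also differed between settings, with 0.116% in the main fit and 9.39% in DESeq2. For the other settings of this comparison that share is not reported here. With sh10 in CMPs the count of 0 became 1 under upper quartile scaling, a minimum of 10 counts in every library and DESeq2. The cause of these changes was not tested. Counts of 0 elsewhere stayed 0. No member that was called in the main fit or in an alternative had opposite signs in that alternative and the main fit. The letters were not taken to pair libraries, since their deviations from the group means correlated from -0.17 to 0.16 within a cell type, with 2 of 16 pairs over 0.1, and from -0.13 to 0.26 across cell types.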
